A study of Mus musculus with 30 samples.

Results

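The genes described here encode the nuclear-encoded subunits of the oxidative phosphorylation machinery of mitochondria, measured in mouse ovaries. They are the rows of the deposited table whose symbol begins with Ndufa, Ndufb, Ndufc, Ndufs, Ndufv, Uqcr, Cox4 to Cox8 or Atp5, or is Sdha, Sdhb, Sdhc, Sdhd or Cyc1. Assembly factor genes (Ndufaf) and pseudogene symbols were left out, and a mean above 0 log2 CPM (read counts scaled to library size, on a log2 scale) over the 30 libraries was required. The rule found 83 genes, all of which passed this filter, among 14740 genes tested and 18022 in the table. They comprise 37 genes of complex I, 4 of complex II, 9 of complex III, 16 of complex IV and 17 of complex V. The filter on the mean used no difference between groups.

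The ovaries belonged to adult females of CD1, an outbred mouse stock, dosed over 10 days with vehicle, DEHP (di(2-ethylhexyl) phthalate) at 20 or 200 ug/kg/day, or DiNP (diisononyl phthalate) at 20 or 100 ug/kg/day. Collection of whole ovaries followed at the end of dosing (0 months) or after 3 more months, in 10 groups of 3 libraries. Both compounds are plasticizers, and all groups share the strain, the tissue and the dosing period. The groups are called by compound and dose below (DEHP 20, DEHP 200, DiNP 20, DiNP 100), and libraries by group and replicate. The labels do not state that each replicate is a separate mouse, so the p-values measure the spread between these libraries.

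Oxidative phosphorylation takes place in the inner mitochondrial membrane. Complex I (NADH dehydrogenase) and complex II (succinate dehydrogenase, also an enzyme of the citric acid cycle) pass electrons to ubiquinone, complex III (cytochrome bc1) passes them to cytochrome c, and complex IV (cytochrome c oxidase) reduces oxygen. The proton gradient built by complexes I, III and IV drives complex V, the ATP synthase. In the ovary, luteal cells are rich in mitochondria, where the first step of steroid synthesis takes place, and the oocyte holds a large store of them.

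A few hydrophobic subunits are encoded by mitochondrial DNA. None of those 13 genes is in the table used here, so all values concern the nuclear share, and in the RefSeq annotation of GRCm38.p6 all 83 genes lie on nuclear chromosomes, 3 of them (Ndufa1, Ndufb11 and Cox7b) on the X. The label holds for most members, with exceptions that the rule admits. Cox7a2l is known mainly as an assembly factor of respiratory supercomplexes, and Atp5s (factor B, also called Dmac2l) is not a core subunit of the ATP synthase.

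Promoters are shown for 5 members, 4 of them genes described in detail below. Factors acting at promoters are the textbook route by which these genes are expressed together. The reads cover mRNA and no binding was measured. Uqcr11, a small subunit of complex III, is shown only as an example of a promoter that holds motifs of both NRF-1 and an ETS factor. Atp5s, Ndufb10 and Sdha are shown because they differed between the time points, and Cox7a1 because it varied most between libraries. Each run holds 250 bases before and 50 after the annotated start, 5′ to 3′ on the coding strand, from RefSeq on GRCm38.p6. Capitals mark a motif. Uqcr11 lies at chr10:80406772-80407071 on the minus strand, Atp5s at chr12:69724695-69724994 on the plus strand, Ndufb10 at chr17:24724374-24724673 on the minus strand, Sdha at chr13:74350191-74350490 on the minus strand and Cox7a1 at chr7:30183921-30184220 on the plus strand.
Uqcr11: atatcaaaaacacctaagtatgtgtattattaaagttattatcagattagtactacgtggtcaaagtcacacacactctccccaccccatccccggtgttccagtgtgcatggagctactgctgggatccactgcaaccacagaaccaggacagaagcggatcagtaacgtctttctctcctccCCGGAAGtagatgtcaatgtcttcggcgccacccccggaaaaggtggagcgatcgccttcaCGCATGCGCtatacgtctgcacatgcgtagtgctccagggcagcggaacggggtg
Atp5s: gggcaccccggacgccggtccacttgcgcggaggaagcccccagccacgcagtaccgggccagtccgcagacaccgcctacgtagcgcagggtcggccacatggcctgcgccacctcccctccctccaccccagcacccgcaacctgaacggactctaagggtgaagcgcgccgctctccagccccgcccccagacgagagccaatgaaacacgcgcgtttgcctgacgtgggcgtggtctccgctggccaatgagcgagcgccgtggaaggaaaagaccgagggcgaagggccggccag
Ndufb10: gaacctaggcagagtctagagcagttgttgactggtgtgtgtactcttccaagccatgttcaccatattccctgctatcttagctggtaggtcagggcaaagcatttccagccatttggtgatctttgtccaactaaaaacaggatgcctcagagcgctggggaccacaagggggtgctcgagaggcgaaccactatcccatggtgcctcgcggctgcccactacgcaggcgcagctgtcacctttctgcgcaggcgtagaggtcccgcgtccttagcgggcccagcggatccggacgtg
Sdha: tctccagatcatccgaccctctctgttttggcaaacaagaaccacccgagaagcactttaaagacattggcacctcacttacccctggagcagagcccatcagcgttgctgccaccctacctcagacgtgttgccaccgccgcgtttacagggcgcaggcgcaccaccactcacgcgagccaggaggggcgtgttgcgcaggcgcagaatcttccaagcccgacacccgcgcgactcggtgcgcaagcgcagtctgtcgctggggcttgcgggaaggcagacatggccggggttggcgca
Cox7a1: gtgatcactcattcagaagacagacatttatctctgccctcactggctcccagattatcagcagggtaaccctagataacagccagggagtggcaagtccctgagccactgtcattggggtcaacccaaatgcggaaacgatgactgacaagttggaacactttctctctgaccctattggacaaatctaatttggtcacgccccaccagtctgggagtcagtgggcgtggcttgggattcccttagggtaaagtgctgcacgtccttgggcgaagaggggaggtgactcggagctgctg

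In the Uqcr11 promoter the NRF-1 letters begin at base -5 and the ETS letters at base -66, counted from the annotated start. The other promoters printed hold none of the motifs searched. The search covered both strands for NRF-1 (GCGCATGCG), ETS factors such as GABPA (CCGGAAG), YY1 (AAGATGGC), estrogen-related receptors (CAAGGTCA) and the TATA box (TATAAA). Of the 83 members 67 had an entry in the promoter table, with 72 promoters in all.

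The NRF-1 letters stood in 11.1% of the member promoters, against 3.18% of the 14706 promoters of other genes tested. The shares were 22.2% against 15.71% for ETS, 13.9% against 3.93% for YY1, 5.6% against 1.12% for the estrogen-related receptors and 8.3% against 7.58% for the TATA box. No ETS and YY1 match shared bases, and 31 (43.1%) of the 72 promoters held at least 1 of the first 4 motifs, against 22.2% of the promoters of other genes tested. The median GC content of the member promoters was 58% and that of the other promoters 60.3%. Each match is a description of letters in this window.

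Library depth, estimated from steps between low values, was about 24.7 to 41.5 M reads (mega reads), and libraries of a group correlated at r = 0.908 to 0.98 across genes. Ovarian markers were present in all libraries: the mean of 14 oocyte genes lay between 3.28 and 5.34 log2 CPM, that of 13 granulosa genes between 6.87 and 8.44 and that of 7 theca genes between 6.97 and 7.98. The mean of 12 corpus luteum genes ranged most of these 4 lists, from 5.28 in DEHP 200 replicate 3 at 0 months to 10.79 in vehicle replicate 3 at 3 months. In bulk tissue, fewer cells of a type and less RNA per cell cannot be told apart. Of 11 skeletal muscle and 6 cardiac muscle markers, 2 and 3 passed the filter on low values. The mean of those 2 skeletal muscle markers lay between 0.448 and 1.34 log2 CPM and that of the 3 cardiac markers (Ryr2, Tnni3 and Tnnt2) between 3.16 and 4.76.

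Mean levels of the subunit genes spanned from Atp5b, the catalytic beta subunit of the ATP synthase, at 10.03 log2 CPM to Ndufb4c at 0.765 log2 CPM. Atp5a1, the alpha subunit, followed at 9.71 log2 CPM. Long and short transcripts take unequal shares of reads, so levels of different genes are compared per kilobase of median transcript length, as log2 CPM per kb, which 82 members allow. On that scale the order was Atp5b at 9.09, Atp5g3 (a c-ring subunit) at 8.81, Cox4i1 at 8.36, Atp5a1 at 8.35 and Cox6a1 at 8.23. Cox4i1 and Atp5a1 differ by less than their spread between libraries (residual SD 0.206 and 0.165). The median level per kb was 6.09 for complex I, 6.38 for complex II, 7.04 for complex III, 7.21 for complex IV and 7.59 for complex V.

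Several subunits of complex IV come as a common and a tissue-restricted version. Cox4i1, the common version of subunit IV, exceeded Cox4i2, known from lung and as responsive to oxygen, by 5.88 on the log2 scale per kb (SD 0.318, n = 30 libraries). Cox6b1 exceeded Cox6b2, known from testis, by 4.27 (SD 0.391, n = 30), and Ndufa4 exceeded Ndufa4l2, known as a hypoxia-responsive relative, by 4.85 (SD 0.247, n = 30). Cox7a2 exceeded Cox7a1, the heart and skeletal muscle version, by 3.93 (SD 0.636, n = 30). The common versions were thus higher in these 4 pairs in every library, the smallest gap being 2.54 for the Cox7a pair in DEHP 20 replicate 3 at 3 months. Cox6a2, Cox7b2, Cox8b, Cox8c and Atp5l2 did not match a row of the table used here. Of the 3 c-ring genes, which encode the same mature protein, Atp5g3 stood 0.989 above Atp5g2 (SD 0.183, n = 30) and 4.09 above Atp5g1 (SD 0.191, n = 30) on the log2 scale per kb. For Atp5g1 the median annotated transcript length of 2675.5 nt lowers the level per kb, and on the log2 CPM scale its mean was 6.13.

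The spread between libraries of the same group (residual SD, log2) had a median of 0.253 over the 83 genes and 0.246 over all genes tested. It was under 0.2 for 20 members and over 0.4 for 5. Uqcrc2, a core protein of complex III, varied least, with an SD of 0.1 and values between 7.3 and 7.68 log2 CPM. Sdha, the flavoprotein of complex II, followed with 0.133, then Ndufa10 and Sdhc with 0.135 each. The most variable members were Cox7a1 with 0.851 and Ndufb4c with 0.764, which are also those with the lowest means, followed by Ndufc1 with 0.43, Uqcrq with 0.424 and Cox7b with 0.417. Across the 82 members with a length, the correlation of SD with log2 transcript length was r = -0.488, given as a description across genes that share the same libraries.

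Cox7a1 lies at chr7:30184171-30186030. At 0 months it stood at 1.22, 1.13 and 1.76 log2 CPM in vehicle, 3.25, 1 and 1.22 in DEHP 20, and 0.566, 2.47 and 1.24 in DEHP 200. It stood at 1.54, 1.65 and 0.945 in DiNP 20 and 1.07, 0.998 and 2.18 in DiNP 100. At 3 months its values were 0.902, 1.73 and 2.27 in vehicle, 0.824, 2.55 and 3.07 in DEHP 20, 2.45, 0.347 and 2.18 in DEHP 200, 2.38, 1.35 and 1.13 in DiNP 20, and 2.45, 1.75 and 3.14 in DiNP 100. Every group overlapped the vehicle group of its time point, and high values occurred in single libraries of several groups. Cox7a1 was highest in DEHP 20 replicate 1 at 0 months, at 3.25 log2 CPM. Next were DiNP 100 replicate 3 (3.14) and DEHP 20 replicate 3 (3.07), both at 3 months. The skeletal muscle marker mean in these libraries was 0.487, 1.34 and 0.448 in the same order, where 1.34 and 0.448 are its highest and lowest of 30. The cardiac marker mean was 4.2, 3.49 and 3.42. At 3 months the library with the lowest Cox7a1 in each group also held that group's lowest corpus luteum mean. At 0 months this held in DEHP 20 and DiNP 20 and not in the other groups. Whether cardiac muscle, skeletal muscle or corpus luteum markers move with Cox7a1 over all libraries was not tested.

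Ndufb4c (chr15:73809449-73809933) carries the name of a copy of the complex I accessory subunit Ndufb4, so that reads of the pair could have been split between them and its values are uncertain. At 3 months it stood at 1.73, 1.66 and 1.39 log2 CPM in vehicle, 0.677, 0.195 and 0.865 in DEHP 20, -2.07, 0.536 and 1.02 in DEHP 200, 0.91, 0.431 and 1.35 in DiNP 20, and 0.796, 0.574 and 1.68 in DiNP 100. The vehicle libraries, which all 4 comparisons share, lay above every library of DEHP 20, DEHP 200 and DiNP 20, and only DiNP 100 overlapped them. The vehicle libraries at 0 months stood at 0.823, 1.363 and 0.85, below every vehicle library at 3 months. The differences from vehicle at 3 months were -1.01 for DEHP 20, -1.76 for DEHP 200, -0.697 for DiNP 20 and -0.577 for DiNP 100, each ± 0.597 (SE). Under DEHP 200 it was the only member with an unadjusted p under 0.05, but the adjusted p was 1.0 in limma. Replicate 1 of DEHP 200 holds the lowest value of any library, and the gene is close to the filter on low values.

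The largest departures of the subunit genes as a set were those of individual libraries. For each gene and library the deviation from the gene's mean over all 30 libraries was taken. The median deviation of the 83 genes was 0.907 in DiNP 100 replicate 3 at 3 months and 0.544 in DEHP 200 replicate 2 at 0 months. In the 28 other libraries it lay between -0.269 and 0.215. These libraries hold the highest value of 79 of the 83 members, 72 in the first and 7 in the second. DiNP 100 replicate 1 at 3 months was next at 0.215, whereas replicate 2 of that group was at -0.102. DEHP 200 replicate 2 at 3 months was lowest, with a median deviation of -0.269 and the lowest value of 34 members.

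**Figure D1:**
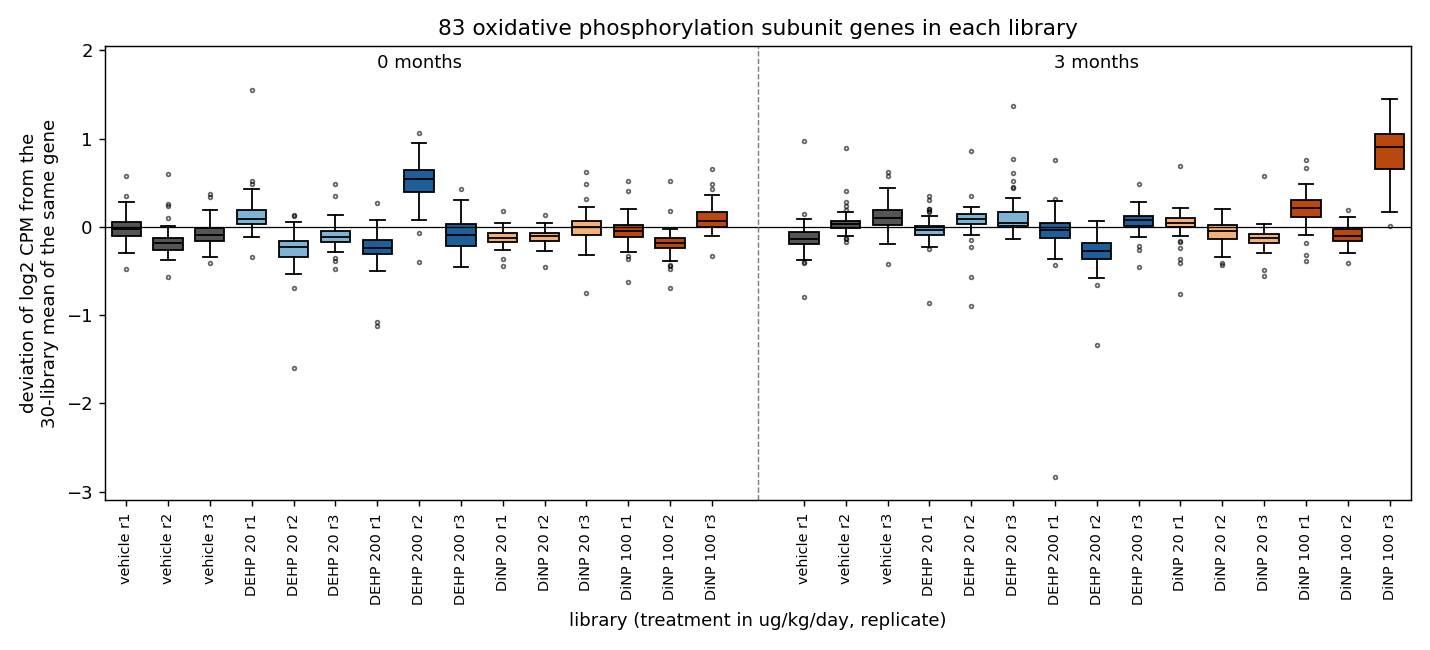
Deviation of log2 CPM from the gene's mean over 30 libraries (vertical axis) for the 83 subunit genes in each library (horizontal axis, r1 to r3 are replicates). Boxes span the quartiles with the median as a line, whiskers reach 1.5 times the interquartile range and points lie beyond. DiNP 100 r3 at 3 months has a median of 0.907 and DEHP 200 r2 at 0 months of 0.544, and the 28 other libraries lie between -0.269 and 0.215.

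All 5 complexes were high in both libraries. In DiNP 100 replicate 3 the median deviation was 0.942 for complex I, 0.588 for complex II, 0.826 for complex III, 0.83 for complex IV and 0.798 for complex V. In DEHP 200 replicate 2 these medians were 0.54, 0.256, 0.495, 0.606 and 0.554 in the same order. Complex II was lowest in both. The 83 genes took 1.33% of the summed CPM in the first library and 1.21% in the second, against 0.835 to 1.02% in the others.

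A dependence on transcript length spread over the whole table in these libraries. Among the 13575 other genes with a length, the correlation of the deviation with log2 length was -0.551 in DiNP 100 replicate 3 and -0.402 in DEHP 200 replicate 2, and between -0.107 and 0.165 in the 28 others. Among the 82 subunit genes it was -0.603 and -0.451. A weaker dependence appeared in DEHP 200 replicate 3 at 0 months and DiNP 100 replicate 1 at 3 months. There the correlations for other genes were -0.107 and -0.101. Their medians were 0.08 and 0.11 under 700 nt and -0.169 and -0.099 over 5000 nt. Other genes under 700 nt had a median deviation of 0.765 in DiNP 100 replicate 3, those over 5000 nt of -0.555. Subunit genes are mostly short, with 35 of 82 under 700 nt and none over 3000 nt, and their median deviation in that library went from 0.998 under 700 nt to 0.489 at 2000 to 3000 nt. In each of the 5 length classes that hold members, the members' median lay above that of the other genes in both libraries. With the length trend of each library removed, an alternative added after seeing the data, the median deviation of the members was 0.227 in DiNP 100 replicate 3 and 0.207 in DEHP 200 replicate 2. These were still the highest of the 30, the next being DiNP 100 replicate 1 at 3 months with 0.117. Whether RNA quality, library preparation or the treatment moved these libraries was not tested.

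**Figure D2:**
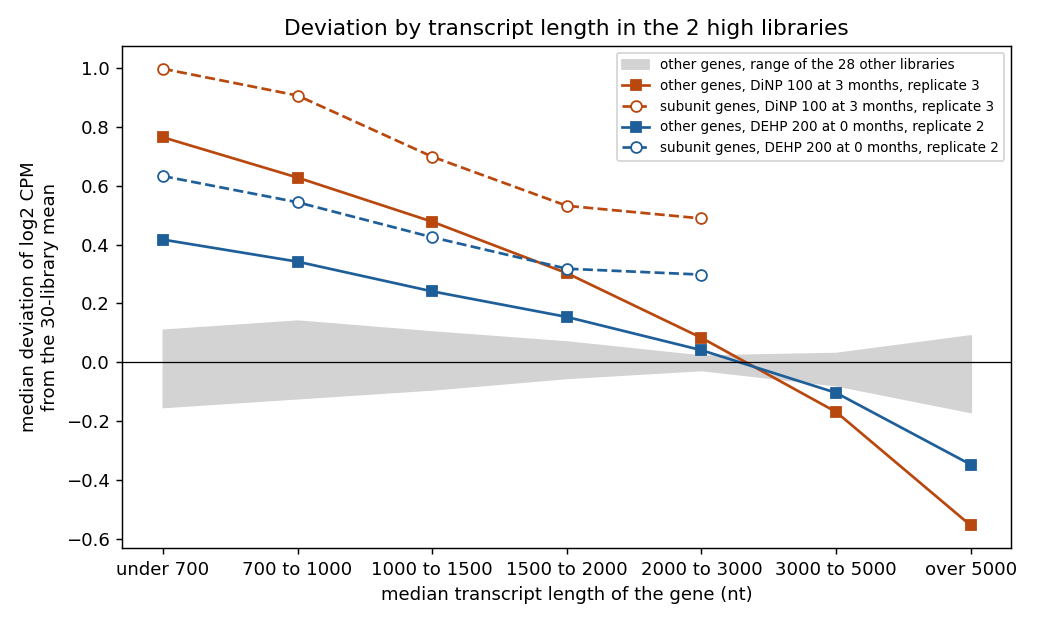
Median deviation of log2 CPM from the 30-library mean (vertical axis) by class of median transcript length in nt (horizontal axis). Squares with solid lines are other genes, open circles with dashed lines the subunit genes, and the grey band is the range of other genes over the 28 other libraries. Other genes fall from 0.765 to -0.555 in DiNP 100 replicate 3 and from 0.417 to -0.348 in DEHP 200 replicate 2.

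At 0 months, the question was whether 10 days of dosing altered these transcripts. No subunit gene passed an adjusted p of 0.05 in any of the 4 comparisons with vehicle (limma, Benjamini-Hochberg over 14740 genes), where the share of all genes passing was 0% each time. The count of members with an unadjusted p under 0.05 was 0 in each comparison. The share of all genes was 2.37% for DEHP 20, 5.02% for DEHP 200, 2.08% for DiNP 20 and 1.75% for DiNP 100. The median difference of the 83 genes from vehicle (log2, treated minus vehicle) was 0.018 for DEHP 20, 0.178 for DEHP 200, 0.016 for DiNP 20 and 0.049 for DiNP 100, beside medians over all genes between -0.002 and 0.013. Members with a difference above 0 numbered 53, 75, 47 and 67 of 83 in the same order. The count for DEHP 200 rests on replicate 2. Without that library the median was -0.072, with 25 of 83 above 0, and with the length trend removed it was 0.028, with 53 above 0. In the same comparison 10 of 12 corpus luteum markers were below 0 (median -0.655), 9 of 10 macrophage markers and 5 of the 6 white adipocyte markers tested were above 0 (0.277 and 1.16), and no marker passed the threshold. The corpus luteum mean was 8.44, 10.21 and 5.28 log2 CPM in DEHP 200 and 8.63, 9.2 and 8.84 in vehicle. Replicates 1 and 3 thus lay below every vehicle library and replicate 2 above them. The macrophage and white adipocyte means overlapped between the groups. With the corpus luteum mean as a covariate, which includes the value of 5.28, the median of the subunit genes was 0.285.

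Ndufb5, an accessory subunit of complex I, had the smallest p of the members above 0 under DEHP 200 at 0 months. Its values were 6.29, 5.9 and 6.06 log2 CPM in vehicle and 6.07, 6.79 and 6.23 in DEHP 200, which overlap. The difference was 0.28 ± 0.173 (SE), with an adjusted p of 0.914 in limma. Ndufs5, another accessory subunit, stood at 5.57, 5.47 and 5.63 in vehicle and 5.22, 5.21 and 5.45 in DEHP 200. These groups did not overlap, the difference was -0.263 ± 0.266 and the adjusted p 0.929 in limma. The Ndufs5 value of 5.21 belongs to replicate 2, the library in which most members were high.

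Cox5a, which encodes subunit Va of complex IV, had the smallest p above 0 under both doses of DiNP. Its vehicle values at 0 months were 6.31, 6.17 and 6.01 log2 CPM, against 6.6, 6.55 and 6.52 in DiNP 20 and 6.19, 6.39 and 6.84 in DiNP 100. The DiNP 20 libraries lay above all vehicle libraries, whereas the DiNP 100 libraries overlapped them. The differences were 0.396 ± 0.273 and 0.312 ± 0.273 (SE), with adjusted p-values of 1.0 in limma. Cox7a2l had the smallest p below 0 under DEHP 20 (-0.135 ± 0.116) and DiNP 20 (-0.227 ± 0.116). Its values were 7.53, 7.36 and 7.44 in vehicle, 7.22, 7.4 and 7.3 in DEHP 20, and 7.2, 7.14 and 7.31 in DiNP 20, so that the DiNP 20 libraries lay below all vehicle libraries. Atp5g2 differed from vehicle by 0.142 ± 0.129 under DEHP 20, and Cox4i2 by -0.297 ± 0.223 under DiNP 100. None of these passed the threshold. The 4 comparisons share their vehicle libraries.

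At 3 months, when the question was whether any difference was present long after dosing, no member passed the threshold in any of the 4 comparisons with vehicle, and the share of all genes passing was 0% in each. The median difference was 0.046 for DEHP 20 with 59 of 83 members above 0, -0.077 for DEHP 200 with 13 above 0, and -0.048 for DiNP 20 with 17 above 0. For DiNP 100 it was 0.34, with 81 of 83 above 0, beside a median of 0.011 over all genes. Replicate 2 of DEHP 200 had the lowest median deviation of the 30 libraries (-0.269). With the length trend removed the DEHP 200 libraries stood at 0.025, -0.155 and 0.091. Those of vehicle stood at -0.077, 0.054 and 0.104, which overlap them. At an unadjusted p under 0.05 there were 0, 1, 0 and 12 members for DEHP 20, DEHP 200, DiNP 20 and DiNP 100. The shares of all genes tested were 1.68%, 1.44%, 1.52% and 9.28% (1368 genes) in the same order.

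Uqcrh, the hinge protein of complex III, had the smallest p under DiNP 100. It lies at chr4:116066965-116075070. It stood at 6.62, 6.79 and 6.77 log2 CPM in vehicle and at 7.03, 6.89 and 7.67 in DiNP 100, so that each DiNP 100 library exceeded each vehicle library. The difference was 0.466 ± 0.159 (SE; 95% interval 0.138 to 0.794), with an adjusted p of 0.518 in limma. Ndufb8, an accessory subunit of complex I, also showed no overlap. It stood at 6.28, 6.46 and 6.48 in vehicle and at 6.91, 6.57 and 7.25 in DiNP 100, a difference of 0.505 ± 0.183 with the same adjusted p of 0.518 in limma. In both genes replicate 3 held the highest value. Overlap was not counted over all genes tested, so the separation is given only as a description. Without replicate 3 the differences were 0.229 ± 0.14 for Uqcrh and 0.338 ± 0.192 for Ndufb8.

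By complex, the median difference under DiNP 100 at 3 months was 0.235 for the 7 core subunits of complex I and 0.377 for its 30 accessory subunits. It was 0.254 for complex II, 0.422 for complex III, 0.305 for complex IV and 0.316 for complex V. Of the core genes, which carry the iron-sulphur clusters and flavin of complex I, Ndufs1 differed by 0.045, Ndufs7 by 0.43 and Ndufv1 by 0.215. In complex II they differed by 0.047 for Sdha, 0.383 for Sdhb, 0.293 for Sdhc and 0.215 for Sdhd. In complex III the values were 0.219 for Uqcrc1, 0.235 for the Rieske protein Uqcrfs1 and 0.146 for cytochrome c1 (Cyc1). Cox4i1 differed by 0.343 and Cox5a by 0.5, and in the ATP synthase Atp5a1 differed by 0.095, Atp5b by 0.123 and Atp5c1 by 0.315. The tissue-restricted versions went from 0.814 for Cox7a1 through 0.034 for Cox6b2 and 0.001 for Cox4i2 to -0.002 for Ndufa4l2. None passed the threshold. Without DiNP 100 replicate 3 the sign turned for Ndufv1 (-0.006), Sdha (-0.041), Cyc1 (-0.048), Atp5a1 (-0.003), Cox6b2 (-0.194) and Cox4i2 (-0.324), and without replicate 1 for Ndufs1 (-0.017).

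These differences ran with length. They had a median of 0.397 for the 35 members under 700 nt, 0.338 for 30 of 700 to 1500 nt and 0.215 for 17 of 1500 nt or more, and other genes of these classes had medians of 0.302, 0.223 and -0.028. The median of the members was 0.065 without replicate 3 (65 of 83 above 0), and also 0.065 with the length trend removed (66 above 0). Leaving out replicate 2 of DiNP 100 instead changed the call. In that fit 9 members passed (Atp5d, Atp5h, Atp5j2, Ndufa10, Ndufa13, Ndufb7, Ndufb8, Sdhc and Uqcrh), by 0.415 to 0.889 with adjusted p-values of 0.0463 to 0.0491 in limma, and so did 633 (4.29%) of all genes. Other mitochondrial lists were high in the same library. The mitochondrial ribosomal protein list (78 genes), the assembly factor list (44 genes) and the citric acid cycle list (18 genes) each had their highest mean of 30 libraries in DiNP 100 replicate 3 and their second highest in DEHP 200 replicate 2. Against vehicle at 3 months, 77 of 78 ribosomal protein genes were above 0 under DiNP 100 with a median of 0.289, 38 of 44 assembly factors with 0.214 and 14 of 18 citric acid cycle genes with 0.072. No gene of these lists passed the threshold. The 16 regulators of mitochondrial biogenesis tested had 9 above 0 and a median of 0.034, and 15 of 17 glycolysis genes were above 0 with a median of 0.156.

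Markers of several cell types also differed in DiNP 100 at 3 months, with no marker past the threshold. Of the corpus luteum markers 9 of 12 were above 0 (median 0.477), and of the macrophage markers 9 of 10 (0.341). Of the granulosa markers 11 of 13 were below 0 (-0.297), and of the white adipocyte markers 5 of the 6 tested (-1.07). The list means overlapped between the groups for corpus luteum (8.91 to 10.79 log2 CPM in vehicle, 9.89 to 10.65 in DiNP 100), granulosa (7.18 to 7.79, 6.96 to 7.29), macrophage (4.56 to 4.78, 4.72 to 5.09) and white adipocytes (3.57 to 3.88, 1.73 to 4.09). With the corpus luteum mean as a covariate the median of the subunit genes was 0.298, with 80 of 83 above 0. The part of the other cell types was not tested.

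**Figure D3:**
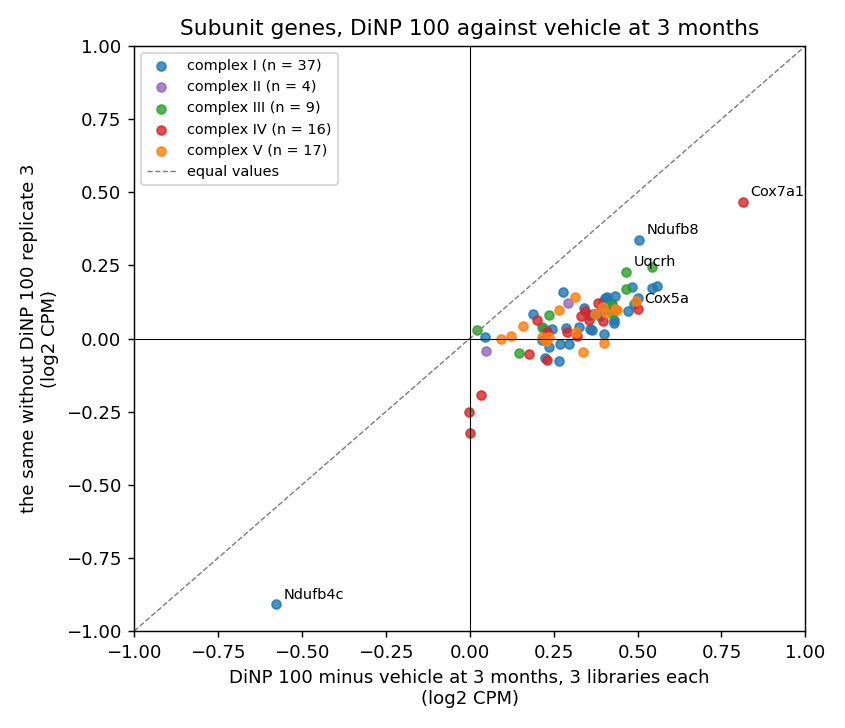
Log2 difference between DiNP 100 and vehicle at 3 months for each of the 83 subunit genes with all 3 DiNP 100 libraries (horizontal axis) and without DiNP 100 replicate 3 (vertical axis), coloured by complex. Most points lie below the line of equal values, and the median goes from 0.34 to 0.065.

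Under DEHP 200 at 3 months, Ndufb8 had the smallest p above 0, with a difference of 0.116 ± 0.183 (SE). Cox6b2 differed by 0.354 ± 0.263 under DEHP 20, where its values were 2.73, 2.54 and 3.19 log2 CPM against 2.57, 2.83 and 2 in vehicle. Under DiNP 20, Cox4i2 stood at 1.61, 1.6 and 1.78 against 1.94, 2.17 and 2.1 in vehicle, which do not overlap. That difference was -0.408 ± 0.223 with an adjusted p of 1.0 in limma. Uqcrh differed by 0.097 ± 0.159 under DiNP 20. The 4 comparisons at 3 months share their vehicle libraries.

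DEHP and DiNP were given at the same dose at 20 ug/kg/day, which allows 2 matched comparisons, 1 at each time point. The compounds are both diesters of phthalic acid and differ in their branched alcohol chains, which are longer in DiNP and a mixture of isomers there. No member passed in either comparison, and the share of all genes passing was 0% in both. The median difference (DEHP minus DiNP) was -0.008 at 0 months with 39 of 83 above 0 and 0.081 at 3 months with 73 of 83 above 0. Members with an unadjusted p under 0.05 in limma numbered 0 at 0 months and 1 at 3 months. A count of 1 among 83 members is a smaller share than the level of 0.05 itself. Neither count is thus an excess of small p-values among the members.

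Markers of oviduct and ciliated cells also differed between these groups at 3 months. Of the 8 in the list 4 passed the filter on low values, and all 4 were higher in DEHP 20, with a median of 2.54 and 3 at an unadjusted p under 0.05, but none passed the threshold. Their mean stood at 2.01, 5.17 and 2.91 log2 CPM in DEHP 20 and at 1.31, 1.85 and 0.439 in DiNP 20, which do not overlap, and replicate 2 of DEHP 20 was the highest. Against vehicle at 3 months all 4 were also above 0 in DEHP 20 (median 2.33) and in DEHP 200 (median 1.5), and none passed the threshold. Without that replicate the median of the subunit genes was 0.065. The filter took the mean over all 30 libraries, which the high DEHP libraries raise, and the markers below it are not described. The part of oviduct and ciliated cells in the differences was not tested.

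The member with an unadjusted p under 0.05 was Cox6b2 at 3 months, at 2.73, 2.54 and 3.19 log2 CPM in DEHP 20 and 1.67, 2.56 and 2.24 in DiNP 20, which overlap. The difference was 0.662 ± 0.263 (SE; 95% interval 0.117 to 1.21), with an adjusted p of 1.0 in limma. It was 0.803 without DEHP 20 replicate 2, the library with the highest oviduct marker mean. Ndufs5 had the smallest p on the DiNP side at 3 months, at -0.262 ± 0.266 (95% interval -0.813 to 0.289), and at 0.081 without DEHP 20 replicate 2. At 0 months Cox4i2 differed by 0.277 ± 0.223 (95% interval -0.184 to 0.738) and Cox5a by -0.259 ± 0.273 (95% interval -0.824 to 0.305). The intervals of Ndufs5, Cox4i2 and Cox5a include both no difference and differences of over 0.7 in size, so they do not show that the compounds act alike. The interval of Cox6b2 excludes 0 but is not adjusted for the number of genes tested. The higher doses differ, 200 for DEHP and 100 for DiNP, and their medians against vehicle were 0.178 and 0.049 at 0 months and -0.077 and 0.34 at 3 months.

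Whether a treatment's difference from vehicle changed between the time points was tested for each treatment. No member passed, and 0% of all genes did in each of these 4 tests. The median change (3 months minus 0 months) was 0.026 for DEHP 20, -0.276 for DEHP 200, -0.061 for DiNP 20 and 0.276 for DiNP 100, with 46, 4, 20 and 82 of 83 members above 0. Members with an unadjusted p under 0.05 numbered 0, 0, 0 and 1, beside 1.96%, 2.54%, 1.49% and 2.33% of all genes. That member was Uqcrh under DiNP 100, with a change of 0.515 ± 0.224 (SE). Without DEHP 200 replicate 2 at 0 months and DiNP 100 replicate 3 at 3 months, the medians were -0.02 for DEHP 200 and 0.011 for DiNP 100.

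Across time most subunit genes had a higher mean at 3 months, and few passed the test. In vehicle ovaries alone no member passed (0.00678% of all genes did, a single gene), the median difference (3 minus 0 months) was 0.105 and 71 of 83 members were above 0. Ndufb10, an accessory subunit in the membrane arm of complex I, had the smallest p in vehicle, at 5.4, 5.4 and 5.27 log2 CPM at 0 months and 5.56, 5.6 and 5.8 at 3 months. The ranges do not overlap, and the difference was 0.295 ± 0.208 (SE) with an adjusted p of 0.73 in limma. Cox7a2l had the smallest p below 0, at -0.158 ± 0.116.

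Over the means of all 5 treatments at each time, 15 libraries against 15, the median difference was 0.078 and 74 of 83 members were above 0, beside a median of 0.003 over all genes. Of the members 3 (3.61%) passed the threshold, all higher at 3 months, where 20.3% of all genes passed. The members that rose are Atp5s, Ndufb10 and Sdha. Of the 83 genes 7 were higher at 3 months in each of the 5 treatments and 0 were lower in each, counts not made over all genes. At an unadjusted p under 0.05 there were 10 members (12%), beside 5173 (35.1%) of all genes tested.

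Atp5s (chr12:69724913-69744665) ranged from 2.95 to 3.51 log2 CPM at 0 months with a median of 3.16, and from 3.11 to 3.83 at 3 months with a median of 3.46. The ranges overlap, and the mean was higher at 3 months in 5 of 5 treatments, by 0.165 in DiNP 20 to 0.461 in DiNP 100. The difference was 0.288 ± 0.0688 (SE) with an adjusted p of 0.00678 in limma. It passed in all 30 fits that leave out 1 library.

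Ndufb10 (chr17:24722060-24724423) had a median of 5.41 at 0 months (5.22 to 6.18) and of 5.72 at 3 months (5.45 to 6.75). Both upper ends are the libraries described above, DEHP 200 replicate 2 and DiNP 100 replicate 3. The difference was 0.281 ± 0.0932 with an adjusted p of 0.0365 in limma, and it passed in 16 of the 30 fits. Sdha (chr13:74322255-74350240) had a median of 8.26 at 0 months (8.05 to 8.53) and of 8.41 at 3 months (8.27 to 8.62). Its difference was 0.153 ± 0.0508 with an adjusted p of 0.0366 in limma, and it passed in 14 of the 30 fits. It was higher in 5 of 5 treatments, by 0.122 to 0.175.

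Cox4i2 (chr2:152753916-152765039) went the other way. Its median was 2.13 at 0 months (1.71 to 2.6) and 1.8 at 3 months (1.58 to 2.72), a difference of -0.275 ± 0.0996 with an adjusted p of 0.0531 in limma. The highest value at 3 months, 2.72, is that of DiNP 100 replicate 3. In 5 of the 30 fits without 1 library it passed, among them the fit without DiNP 100 replicate 3. Its adjusted p was also under the threshold with median centring (0.0391), without the prior trend (0.0428) and with array weights (0.00398, all limma). Cox4i1 and Cox4i2 have median transcripts of 755 and 730 nt, so their difference is nearly free of a length trend. Cox4i1 exceeded Cox4i2 by 5.66 (SD 0.218, n = 15, log2 per kb) at 0 months and 6.1 (SD 0.241, n = 15) at 3 months, ranging from 5.25 to 5.97 and from 5.77 to 6.47. DiNP 100 replicate 1 at 3 months held the largest gap and vehicle replicate 1 at 0 months the smallest.

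**Figure D4:**
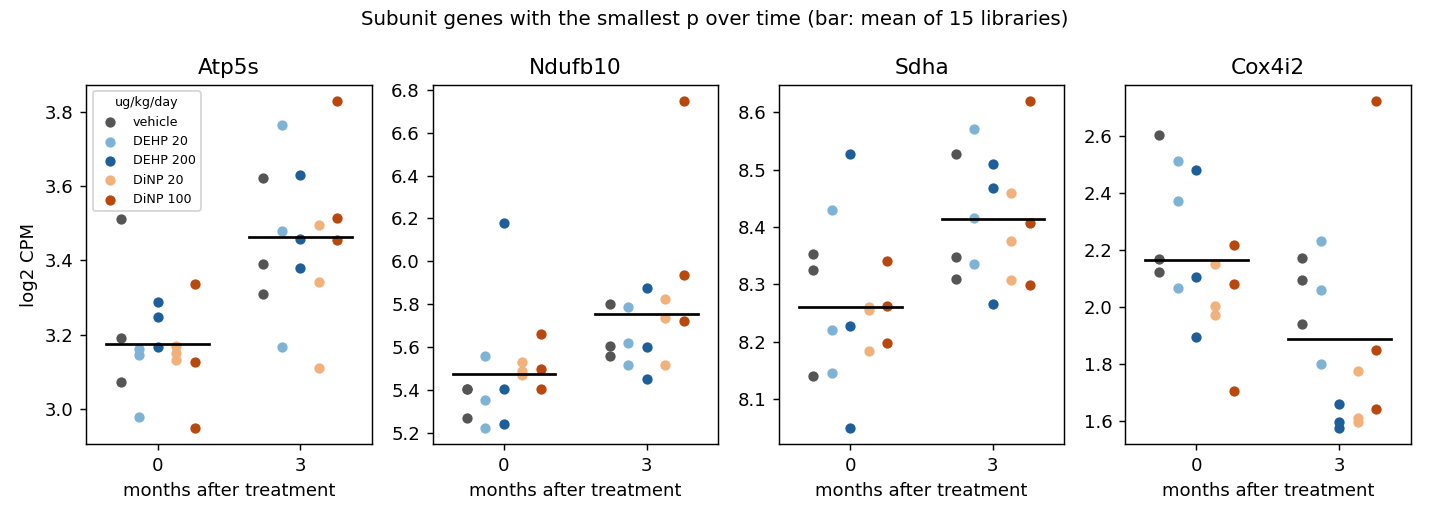
Log2 CPM (vertical axis, not starting at 0) of Atp5s, Ndufb10, Sdha and Cox4i2 in each of 15 libraries at 0 and 15 at 3 months (horizontal axis), coloured by treatment, with the mean of the 15 as a bar. Atp5s, Ndufb10 and Sdha are higher at 3 months by 0.288, 0.281 and 0.153, and Cox4i2 is lower by 0.275, which did not pass the threshold.

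The number of members that passed over time moved with the libraries. Without DEHP 200 replicate 2 at 0 months it was 16, all higher, and 29.8% of all genes passed. Without DiNP 100 replicate 2 at 3 months it was 12, with 25.3% of all genes. It was 5 without DEHP 20 replicate 1 at 3 months, among them Cox4i2. It was 1, Atp5s, without replicate 3 of DEHP 20 at 0 months, replicate 1 of DEHP 200 at 0 months, replicate 3 of DiNP 20 at 0 months, replicate 1 of DiNP 100 at 0 months, replicates 2 or 3 of DEHP 20 at 3 months, replicate 3 of vehicle at 3 months, replicate 3 of DEHP 200 at 3 months, or replicates 1 or 2 of DiNP 20 at 3 months. In the other fits it lay between 2 and 4.

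With the length trend removed 15 members passed, 13 higher and 2 lower (Cox4i2 and Atp5o), beside 24.2% of all genes. In that fit Cox4i1 rose by 0.13 ± 0.0329 with an adjusted p of 0.0085 in limma, and Cox4i2 fell by 0.312 ± 0.0751 with an adjusted p of 0.00622. Ndufb9 and Ndufb11, membrane-arm subunits of complex I, rose by 0.171 ± 0.0406 and 0.218 ± 0.0541. Without both high libraries 16 passed, 15 higher and 1 lower (Cox4i2), beside 30% (4418) of all genes. With array weights, which count variable libraries less (weight 0.198 for DiNP 100 replicate 3 and 0.222 for DEHP 200 replicate 2), 48 passed, 47 higher and 1 lower (Cox4i2), beside 45.2% of all genes.

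Markers of ovarian cell types also differed between the time points, in a comparison where 20.3% of all genes passed. Of the corpus luteum markers 11 of 12 were above 0 and 4 passed as higher at 3 months, with a list mean of 8.83 (5.28 to 10.21) at 0 months and 9.95 (8.5 to 10.79) at 3 months. All 13 granulosa markers were below 0 and 12 passed as lower, and all 14 oocyte markers were below 0 and 13 passed as lower. Of 10 macrophage markers 9 passed as higher, and of 13 smooth muscle and pericyte markers 11 were below 0 and 4 passed as lower. The list mean was 7.685 at 0 months and 7.614 at 3 months for theca, and 5.568 and 5.709 for endothelial markers, with overlapping ranges. With the mean of the corpus luteum list as a covariate, no member passed over time, the median difference was -0.033 and 26 of 83 members were above 0. In that fit Atp5s differed by 0.213 ± 0.0776 with an adjusted p of 0.16 and Cox4i2 by -0.334 ± 0.118 with an adjusted p of 0.149 in limma, and 347 (2.35%) of all genes passed.

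The other mitochondrial and metabolic lists are read against the 20.3% of all genes that passed over time. Of 44 assembly factors 1 passed as higher (median difference 0.081), of 78 mitochondrial ribosomal proteins 1 as lower (0.017), and of 18 citric acid cycle genes 2 as higher and 1 as lower (0.029), a share of 16.7%. Among 16 regulators of mitochondrial biogenesis 1 passed as lower (-0.023), and among 17 glycolysis genes 1 as higher (-0.002). The smallest p in these lists belonged to Surf1 (an assembly factor of complex IV), Mrps2, Ogdh, Esrrb and Pfkm. The lists and members of each were described by counts and medians and not tested as sets.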

How the data were processed

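Ovarian mRNA of 30 libraries was analysed, in 10 groups of 3 taken from the sample labels. Per the submitters' processing notes, FastQC 0.11.8, Salmon 0.11.3, edgeR and R 3.5.2 were used on GRCm38.p6. The values, as log2 CPM for 18022 genes, stand in a single table that the authors deposited. It holds no counts, so depth was approximated from steps between low values, and no count test was run. A read from a gene with near copies could have been split between them.

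The members and lists were chosen with earlier results of these data known. The 14740 genes whose mean exceeded 0 log2 CPM entered limma 3.58.1 under R 4.3.3 (with statmod 1.5.0 for array weights), where each group had its own mean and the prior variance followed the mean level. The residual degrees of freedom were 20 and the prior added 2.85. Benjamini-Hochberg adjustment ran over all genes within each of 16 comparisons, with a threshold of 0.05, and tests are two-sided. ± is the SE of a difference. The pipeline was tested on simulated data.

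Named members are those past the threshold, the smallest p on each side of each comparison, paralog families, core subunits, and the extremes of level and spread. The values of 1 core subunit are not reported here. Lists give counts, medians and their smallest p. Transcript lengths are medians of protein-coding transcripts in GENCODE M21, matched by Entrez identifier for 92.7% of genes tested. The length trend was removed per library with lowess (span 0.3). Replicate numbers were checked as pairs. Alternatives were no filter, a filter of mean log2 CPM above 2, a pseudocount of 1 CPM, median centring, no prior trend, array weights, each time point alone, a replicate block, the corpus luteum covariate and leaving out each library. Removing the length trend and leaving out both high libraries were added after seeing the data.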

Additional observations from a re-analysis of the deposited data

How the results depend on the processing

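Of 95 results, each kept its direction and its side of the threshold with no filter, with each time point fitted alone (70 results) and with the replicate block. With the block 3 members and 2678 genes passed over time, against 2986 genes in the main fit, and no call of a named member changed. The replicate numbers did not pair the libraries: deviations of same-numbered libraries correlated at -0.357 to 0.342 at 0 months and -0.454 to 0.388 at 3 months, and 5 and 3 of 15 libraries were closest to their own number.

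The exceptions under the other settings follow, in log2 units, and the cause was not tested unless stated. Under DiNP 100 at 3 months Cox4i2 turned to -0.027 with median centring, -0.375 with array weights, -0.018 with the corpus luteum covariate, -0.276 with the length trend removed and -0.324 without both high libraries. Cox6b2 turned to -0.476 with array weights, -0.318 with the length trend removed and -0.194 without both high libraries. Cyc1 turned to -0.008 and -0.048 in the last pair of settings, Ndufv1 to -0.006, Sdha to -0.041 and Atp5a1 to -0.003 without both high libraries, and Ndufa4l2 to 0.003 with a pseudocount of 1 CPM. The median of the members under DiNP 100 at 3 months was 0.065 with the length trend removed and 0.065 without both high libraries, where that under DEHP 200 at 0 months was -0.072. The median change from 0 to 3 months was then -0.02 for DEHP 200 and 0.011 for DiNP 100, and -0.028 for DEHP 200 with array weights.

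Members called over time numbered 48 with array weights, 0 with the corpus luteum covariate, 15 with the length trend removed and 16 without both high libraries. All genes called over time numbered 6660 with array weights and 347 with the covariate. In vehicle over time they numbered 0 under the stricter filter, where fewer genes are tested, 531 with array weights, 4 with the length trend removed and 2 without both high libraries. For DiNP 20 at 3 months 3 genes passed with array weights.

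Leaving out 1 library at a time, members called ranged from 1 to 16 over time and from 0 to 9 for DiNP 100 at 3 months. All genes called ranged from 0 to 633 for DiNP 100 at 3 months, from 1 to 3 for vehicle over time and from 0 to 1 for each treatment at 0 months and each change between time points, where vehicle replicate 3 at 0 months gave the 1. The median of the members ranged from -0.072 to 0.352 for DEHP 200 at 0 months, from 0.065 to 0.571 for DiNP 100 at 3 months, from -0.458 to -0.02 for the change of DEHP 200 and from 0.011 to 0.474 for that of DiNP 100. Single members under DiNP 100 at 3 months ranged from -0.324 to 0.216 (Cox4i2), -0.25 to 0.261 (Ndufa4l2), -0.198 to 0.229 (Cox6b2), -0.017 to 0.145 (Ndufs1), -0.006 to 0.385 (Ndufv1), -0.041 to 0.118 (Sdha), -0.048 to 0.293 (Cyc1) and -0.003 to 0.241 (Atp5a1). Ndufs5 between DEHP 20 and DiNP 20 at 3 months ranged from -0.53 to 0.081. A fit without 1 library leaves 2 in its group.

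With 3 libraries a group, the median residual SD of 0.253 sets the precision, and the low levels of Cox7a1, Ndufb4c, Cox4i2 and Cox6b2 rest on few reads. Reads were not recovered from the table, so no interval for counting error is given.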
